A study of Mus musculus with 48 samples.

Results

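T11 tumours yielded macrophages whose RNA was rich in genes of bone-resorbing cells, beside neutrophils of low depth and high background counts. The difference between macrophages and neutrophils within this tumour is described here in 6 of the 48 libraries of the series, 3 libraries of T11 macrophages and 3 of T11 neutrophils, chosen by their labels and over all genes. T11, 2208L, E0771 and AT3 are mouse mammary tumour models. Each gave macrophages and neutrophils in 3 libraries per group, so that the T11 difference can be set against the same difference in the other 3 tumours (18 libraries). The 6 T11 libraries and the 6 of 2208L are labelled BALB/C. AT3 libraries are labelled C57BL/6, and so are those of E0771 except its neutrophil library 1 and macrophage library 1, which are labelled BALB/C. No drug treatment, allele or age is named in the labels of these groups. Per the labels' protocols, live cells positive for CD45 and CD11b were sorted from dissociated tumours. Neutrophils were sorted as Ly6G+ with medium to low Ly6C, and macrophages as Ly6G- Ly6C- F4/80+. No label names separate animals, so each p-value reflects how libraries of a group scatter, and that scatter can be technical. RNA came from many cells at once, and more cells with a transcript cannot be told apart from more RNA per cell.

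Macrophages are tissue phagocytes that depend on the receptor for colony-stimulating factor 1, present antigen on MHC class II and degrade what they take up in lysosomes. Neutrophils are short-lived granulocytes that carry antimicrobial proteins, respond to chemokines through Cxcr2 and release interleukin-1. Osteoclasts are fused cells of the macrophage lineage. They acidify a sealed space on bone with the vacuolar proton pump (V-ATPase) and degrade its matrix with cathepsin K and other proteases, under the transcription factor Nfatc1, which acts downstream of the receptor RANK (Tnfrsf11a).

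Libraries of T11 neutrophils were shallower than those of T11 macrophages and higher in background. Counts outside Rn45s, the ribosomal precursor, were 484820 to 619415 in T11 neutrophils and 1105020 to 1755895 in T11 macrophages. Olfactory and vomeronasal receptor genes, which should be silent in these cells, stood for background. Their summed level in CPM, counts scaled to a common library total, was 15478 ± 3114 (SD, n = 3) in T11 neutrophils and 1416 ± 390 in T11 macrophages, and its means were between 5287 and 10444 in the other neutrophil groups. At 10 times this background per kilobase of exon, 661 of the 19056 genes tested were above it in T11 neutrophils and 9391 in T11 macrophages. A level that reads lower in macrophages can therefore be background in the neutrophils, and such genes are marked as below background.

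Macrophage markers separated the sorted cells, and neutrophil markers did so in part. Summed over 23 macrophage identity genes, T11 macrophages held 12375 to 15592 CPM and T11 neutrophils 996 to 2029 CPM. The sums of these genes did not overlap between the cell types. Over 23 neutrophil receptor and signalling genes, with Mmp9 left out because T11 macrophages were rich in it, T11 neutrophils held 2517 to 6332 CPM and T11 macrophages 1687 to 2170 CPM. In the other tumours' neutrophils these sums ran from 6211 to 24036 CPM. A second list, of 20 granule proteins, went the other way in T11, at 11590 to 19675 CPM in macrophages and 1429 to 3948 CPM in neutrophils. Without Mmp9 these sums were 7580 to 8222 CPM and 1361 to 3780 CPM, and the list holds genes that macrophages also express, such as Lyz2 and Cybb. Ly6g was not analysed here, and Emr1 is the table's name for the gene of F4/80, at 219, 233 and 469 CPM in T11 macrophage libraries 1 to 3 and 58.5, 56.3 and 65.5 CPM in T11 neutrophil libraries 1 to 3. Unless said otherwise, CPM are scaled with TMM factors to the counts outside Rn45s, and 3 values in a row are libraries 1, 2 and 3.

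**Figure D1:**
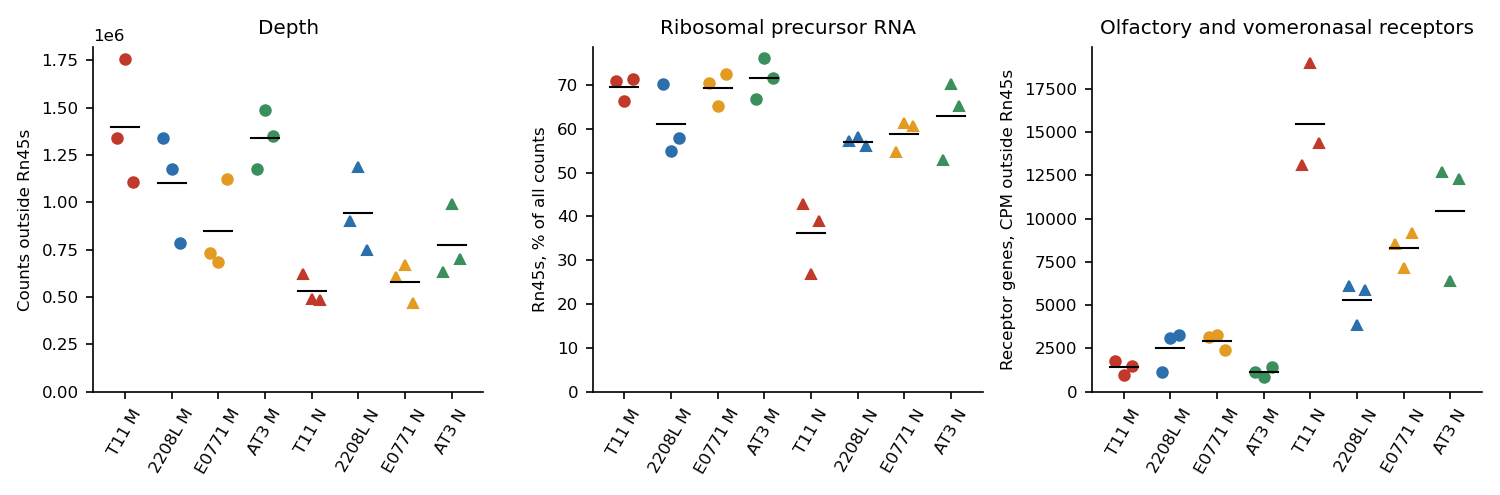
Each point is 1 of the 24 sorted libraries, grouped by tumour and cell type. The panels show counts outside Rn45s, Rn45s as a percentage of all counts, and the summed CPM of receptor genes. T11 neutrophils have the highest receptor sums on average (15478 CPM).

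Within T11, macrophages exceeded neutrophils in 5561 genes (29.2% of the 19056 tested) and fell below them in 7542 (39.6%), by the edgeR quasi-likelihood test at an adjusted p below 0.05. Under all 5 scalings compared, 1680 genes stayed higher (8.82%) and 7503 lower (39.4%). Only 203 of the genes called lower were above background in T11 neutrophils. The median log2 difference of all genes was -0.68 and moved to between -2.21 and -0.67 with the other scalings, which took the share of higher calls from 42.4% to between 11.8% and 42.6%. Over the 9476 genes above background in a T11 group, nearly all of them through the macrophages, the median was 1.11. Differences of single genes are therefore best read beside both medians. A call said to be held is one that passed in the same direction under all 5 scalings. Most other scalings moved the median down, so holding sifted the higher calls and hardly the lower ones.

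The genes with the largest excess in T11 macrophages were led by Acp5, the tartrate-resistant acid phosphatase used as a stain for osteoclasts (chromosome 9, 22126727 to 22135711, GRCm38). Acp5 stood at 8304, 9921 and 5597 CPM in macrophages and at 49.8, 41.1 and 25.7 CPM in neutrophils. Its log2 difference was 7.66 ± 0.49 (SE; adjusted p = 1.88e-16), and the groups did not overlap. Ctsk, cathepsin K (chromosome 3, 95499256 to 95509362), stood at 8954, 8600 and 5010 CPM against 71.5, 36.4 and 43.7 CPM, a log2 difference of 7.21 ± 0.50. Mmp9, gelatinase B (chromosome 2, 164940780 to 164955850), stood at 9402, 11453 and 3925 CPM against 168, 68.1 and 122 CPM. In each of these 3 genes macrophage library 3 was the lowest of the macrophages, and still far above every neutrophil library. The other genes named by the same rule were S100a4 (a calcium-binding protein, log2 difference 5.82), Atp6v0d2 (a V-ATPase subunit, 5.80), Eef1a1 (translation elongation, 5.19), Rpl4 (a ribosomal protein, 5.10), Vim (vimentin, 5.03), Hsd3b7 (a sterol-metabolising enzyme, 4.97) and Atp5b (ATP synthase, 4.97). Of these, S100a4, Vim, Eef1a1, Rpl4 and Atp5b were also abundant in the cultured T11 line, for example Vim at 3161 CPM and S100a4 at 735 CPM (scaled without TMM factors). Acp5, Ctsk and Mmp9 were at 3.12, 5.44 and 3.73 CPM in that line.

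The genes most in excess in T11 neutrophils were neutrophil products. S100a9, a subunit of calprotectin, stood at 1740.1, 440.0 and 613 CPM in neutrophils and at 5.05, 1.66 and 2.31 CPM in macrophages, a log2 difference of -8.24 ± 0.71. S100a8, its partner, stood at 538, 183 and 284 CPM against 1.01, 2.48 and 2.31 CPM. Cxcr2, the chemokine receptor, stood at 377, 97.4 and 253 CPM against 2.02, 0.83 and 1.15 CPM. In all 3 genes neutrophil library 1 was the highest. G0s2, an inhibitor of lipolysis, had 1 count over the 3 macrophage libraries and 207 over the neutrophils, a ratio of 248.5 with a 95% counting interval of 44.1 to 9864, which covers counting error only. Hcar2, Hdc, Il1r2, Lrg1, Il1f9 and Il1b completed the 10 genes, with log2 differences of -6.27, -6.15, -6.13, -5.83, -5.53 and -5.34. The mean of the other 3 tumours showed the same excess in Hdc, the histidine decarboxylase that makes histamine, and the T11 difference of Hdc beyond them was 0.39 ± 0.61 (adjusted p = 0.67).

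Most genes held in T11 were also called in the same direction in the mean of the other tumours, where only the main scaling was used. Of the 1680 genes held higher in T11 macrophages, 1521 were also called higher in the mean of the other 3 tumours, which is 90.5% of the T11 list and 33.7% of the 4511 called there (23.7% of all genes). Of the 7503 held lower, 5247 were also called lower, 69.9% of the T11 list and 78.0% of the 6727 called there (35.3% of all genes). Of the 7503, 201 were above background in T11 neutrophils. Mean receptor sums were 5287 to 15478 CPM in the neutrophil groups and 1130 to 2957 CPM in the macrophage groups. What this background adds to the shared lower calls was not tested. Genes called the other way in the other tumours numbered 17 and 48. What T11 adds was measured as the T11 difference less the mean difference of the other 3 tumours, called the interaction here. It combines 2 sides, T11 macrophages against the other macrophages and T11 neutrophils against the other neutrophils. These comparisons share the T11 libraries, so a gene's values on the 2 sides are given side by side.

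The interaction was higher in 3007 genes (15.8%) and lower in 1321 (6.93%), and held in 959 (5.03%) and 1260 (6.61%). The share of higher calls was 69.5% and ran from 17.2% to 70.5% with the other scalings. Most of these moved the median down, so holding sifted the higher calls and left most lower calls in place. On the macrophage side too, 1612 of 1635 lower calls held and 1313 of 2270 higher ones. On the neutrophil side most scalings moved the median up, and 812 of 2257 lower calls held. Of the 959 held higher, 957 were above background in a T11 group, and 800 were also called against each of the other 3 tumours taken singly, a rule met by 1002 genes in all (5.26%). Of these 959 genes, 578 were held higher on the macrophage side (6.89% of all genes) and 410 held lower on the neutrophil side (4.26% of all genes), 119 of them both. Of the 1260 held lower, 851 were held lower on the macrophage side (8.46% of all genes) and 43 held higher on the neutrophil side (0.493% of all genes). Of the 1260, 131 were above background in T11, and 132 genes in all (0.693%) were lower against each other tumour. Of the 9476 genes above background in a T11 group, 9391 passed in T11 macrophages. Genes high there thus pass almost by construction, so 957 of 959 and 131 of 1260 are no support. Among these 9476 genes, 2986 had a positive and 140 a negative interaction. On the macrophage side 2210 were higher and 599 lower, and on the neutrophil side 37 and 2173. Lists made mostly of such genes are better read beside these counts.

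**Figure D2:**
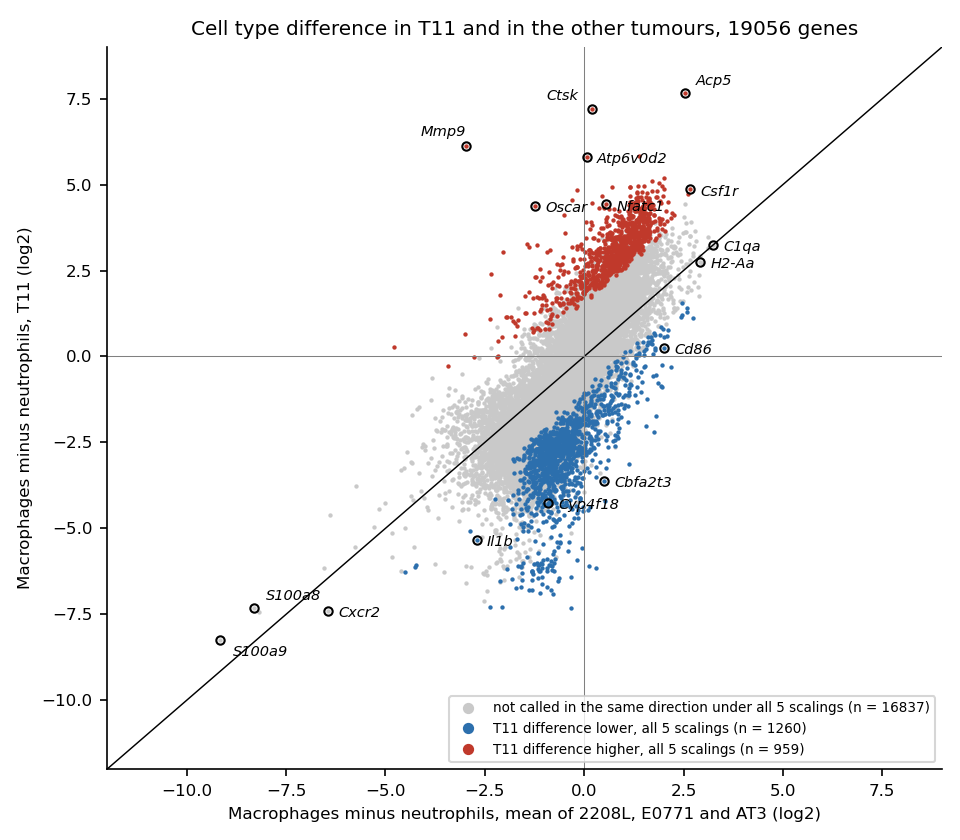
Each point is 1 of the 19056 genes tested. The x axis is the log2 difference between macrophages and neutrophils averaged over the other 3 tumours and the y axis the same difference in T11, and the line marks equality. Genes held as higher or lower beyond the other tumours are coloured, and Mmp9, Ctsk, Acp5 and Atp6v0d2 lie far above the line.

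The 12 genes with the largest positive interaction were Mmp9, Ctsk, Atp6v0d2, Oscar, Acp5, Myo1d, Steap4, Cyp2s1, Slc9b2, Rufy4, Akap6 and Cd109. They were named among called genes with a mean of at least 50 CPM in a group. Their T11 difference also had to lie outside the range of the other 3 tumours. All 12 were called against each other tumour singly, but this rule had set the direction, so the agreement is not independent evidence. Mmp9 led with an interaction of 9.07 ± 0.71 on the log2 scale (adjusted p = 1.24e-13). In the other tumours its difference ran against macrophages, at -5.27 in 2208L, -0.63 in E0771 and -2.99 in AT3, and in T11 it was 6.11. Mean Mmp9 in the other macrophages was 16.7, 105 and 46.3 CPM in 2208L, E0771 and AT3. Mmp9 is a granule protein of neutrophils as well as a product of osteoclasts, and on the neutrophil side it was lower in T11 by -1.49 ± 0.44 (adjusted p = 0.016), a call that was not held. Ctsk had an interaction of 7.00 ± 0.55. The other macrophages had means of 12.2, 44.7 and 13.1 CPM of Ctsk. T11 neutrophils also held more Ctsk than the other neutrophils, by 1.58 ± 0.36 (adjusted p = 0.00151), at 50.5 ± 18.5 CPM (SD, n = 3) where T11 macrophages held 7521 ± 2182 CPM.

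Promoter sequence was read for the genes that lead this pattern. The RefSeq table (GRCm38.p6) held 8 of these 12 genes, 12 of the 20 osteoclast-like genes and 12 V-ATPase genes. The 250 bases before the start are shown for Ctsk, Oscar and Acp5, the strongest of them, and for Clcn7 and Atp6v0b, which carry the letters read by Mitf. Capitals mark CACGTG or CCACGTG, or GAGGAA on either strand (TTCCTC on the one shown), the core letters read by PU.1, and Acp5 holds none.
Ctsk, chr3:95498960-95499209, plus strand: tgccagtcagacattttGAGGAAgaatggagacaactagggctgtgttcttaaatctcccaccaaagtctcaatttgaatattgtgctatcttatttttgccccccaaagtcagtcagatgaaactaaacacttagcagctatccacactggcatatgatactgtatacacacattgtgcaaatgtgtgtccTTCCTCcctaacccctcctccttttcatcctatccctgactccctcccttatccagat
Oscar, chr7:3616158-3616407, minus strand: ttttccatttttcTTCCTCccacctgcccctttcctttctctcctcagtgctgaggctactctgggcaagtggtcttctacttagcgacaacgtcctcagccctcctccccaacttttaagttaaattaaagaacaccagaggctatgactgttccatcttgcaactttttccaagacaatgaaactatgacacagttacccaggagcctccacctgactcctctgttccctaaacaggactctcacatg
Acp5, chr9:22135747-22135996, minus strand: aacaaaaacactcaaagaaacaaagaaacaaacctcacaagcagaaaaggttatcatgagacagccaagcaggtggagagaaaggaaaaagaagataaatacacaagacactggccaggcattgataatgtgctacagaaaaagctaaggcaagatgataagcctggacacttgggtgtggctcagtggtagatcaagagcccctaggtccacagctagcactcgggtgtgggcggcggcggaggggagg
Clcn7, chr17:25133141-25133390, plus strand: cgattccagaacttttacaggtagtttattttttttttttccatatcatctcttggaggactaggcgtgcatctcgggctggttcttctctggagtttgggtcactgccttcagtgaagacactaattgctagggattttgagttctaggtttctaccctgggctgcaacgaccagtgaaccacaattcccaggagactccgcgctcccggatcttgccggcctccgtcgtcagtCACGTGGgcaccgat
Atp6v0b, chr4:117887330-117887579, minus strand: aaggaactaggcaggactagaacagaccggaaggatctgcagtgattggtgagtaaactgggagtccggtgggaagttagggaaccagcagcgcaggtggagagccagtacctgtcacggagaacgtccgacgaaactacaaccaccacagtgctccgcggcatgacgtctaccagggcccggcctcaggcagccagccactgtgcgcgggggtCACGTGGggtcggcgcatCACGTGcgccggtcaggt
In all 32851 promoters of the table, read over the same 250 bases and both strands, 6.02% held CACGTG, 3.21% CCACGTG (which contains it), 23.3% GAGGAA and 6.75% TGANTCA, the letters read by AP-1. Of the 12 osteoclast-like promoters, 1 held CACGTG, 1 CCACGTG, 3 GAGGAA and 0 TGANTCA. Of the 12 V-ATPase promoters the numbers were 2, 1, 1 and 1. A match is only a description of the letters.

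Genes of the osteoclast programme rose together in T11 macrophages. The list of 20 such genes was drawn up with earlier results of these data known, so its direction is not independent evidence. All 20 had a positive interaction call (19 held, against 15.8% and 5.03% of all genes), and 16 were called against each other tumour singly. On the macrophage side all 20 were called higher and 19 held, where 11.9% of all genes were called higher, 8.58% lower and 6.89% held higher. On the neutrophil side 1 was called higher (Ctsk) and 3 lower, where 0.808% of all genes were called higher and 11.8% lower. The median interaction was 3.01, the median macrophage-side difference 3.17 and the median neutrophil-side difference -0.13, beside -0.12, -0.03 and 0.13 for all genes. Over the 9476 genes above background in a T11 group they were 0.71, 0.36 and -0.34. The medians of all genes moved to as far as -1.03, -0.27 and 0.79 with the other scalings, and the share of higher calls ran from 37.3% to 58.1% on the macrophage side (58.1% with TMM) and from 4.83% to 84.0% on the neutrophil side (6.39% with TMM). With any 1 library left out, 19 to 20 kept a positive interaction call.

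Receptors and regulators of the programme were among them. Tnfrsf11a, the receptor RANK, stood at 663, 646 and 572 CPM in T11 macrophages and at 45.5, 43.4 and 64.3 CPM in T11 neutrophils, and the other macrophages had means of 133, 94.0 and 164 CPM (2208L, E0771, AT3). Nfatc1 stood at 2564, 2981 and 1908 CPM against 152, 92.7 and 102 CPM, and the other macrophages at 172, 153 and 207 CPM. The T11 macrophages thus had more Nfatc1 than every other group, by 3.82 ± 0.21 on the log2 scale over the other macrophages. Oscar, an immunoglobulin-like receptor that costimulates osteoclast formation, stood at 289.7, 326 and 183 CPM against 9.75, 12.9 and 15.4 CPM, with means of 5.41, 10.6 and 2.04 CPM in the other macrophages. Mitf, a transcription factor that acts with Nfatc1 on such genes, had an interaction of 2.19 ± 0.38. Itgb3, the integrin beta 3 chain used for bone attachment, had one of 3.65 ± 0.43, and Src, the kinase that acts downstream of it, one of 2.49 ± 0.39. Calcr, the calcitonin receptor, stayed low at 51.5, 45.5 and 34.6 CPM in T11 macrophages and 37.9, 24.6 and 34.7 CPM in T11 neutrophils. Its within-T11 difference was not called (0.44 ± 0.47, adjusted p = 0.41).

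Fusion genes and effectors followed the same pattern. Dcstamp and Ocstamp, membrane proteins needed for fusion of osteoclast precursors, had interactions of 3.17 ± 0.60 and 3.46 ± 0.55. Ocstamp stood at 448, 564 and 250.4 CPM in T11 macrophages and at most 21.7 CPM in T11 neutrophils, with other macrophage means between 16.98 and 30.6 CPM. Car2, the carbonic anhydrase that supplies protons, stood at 75.7, 82.8 and 17.3 CPM against 21.7, 16.4 and 14.1 CPM, so that macrophage library 3 lay within the neutrophil range. Clcn7, the lysosomal chloride exchanger, rose by 1.42 ± 0.23 on the macrophage side. Ostm1, its partner subunit, had an interaction of 1.32 ± 0.45 (adjusted p = 0.027) that did not hold under every scaling. Slc9b2, a sodium-proton exchanger known from osteoclasts and outside the list, stood at 1155, 1123 and 729 CPM against 32.5, 45.8 and 50.1 CPM, with other macrophage means of 6.59 to 11.5 CPM.

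**Figure D3:**
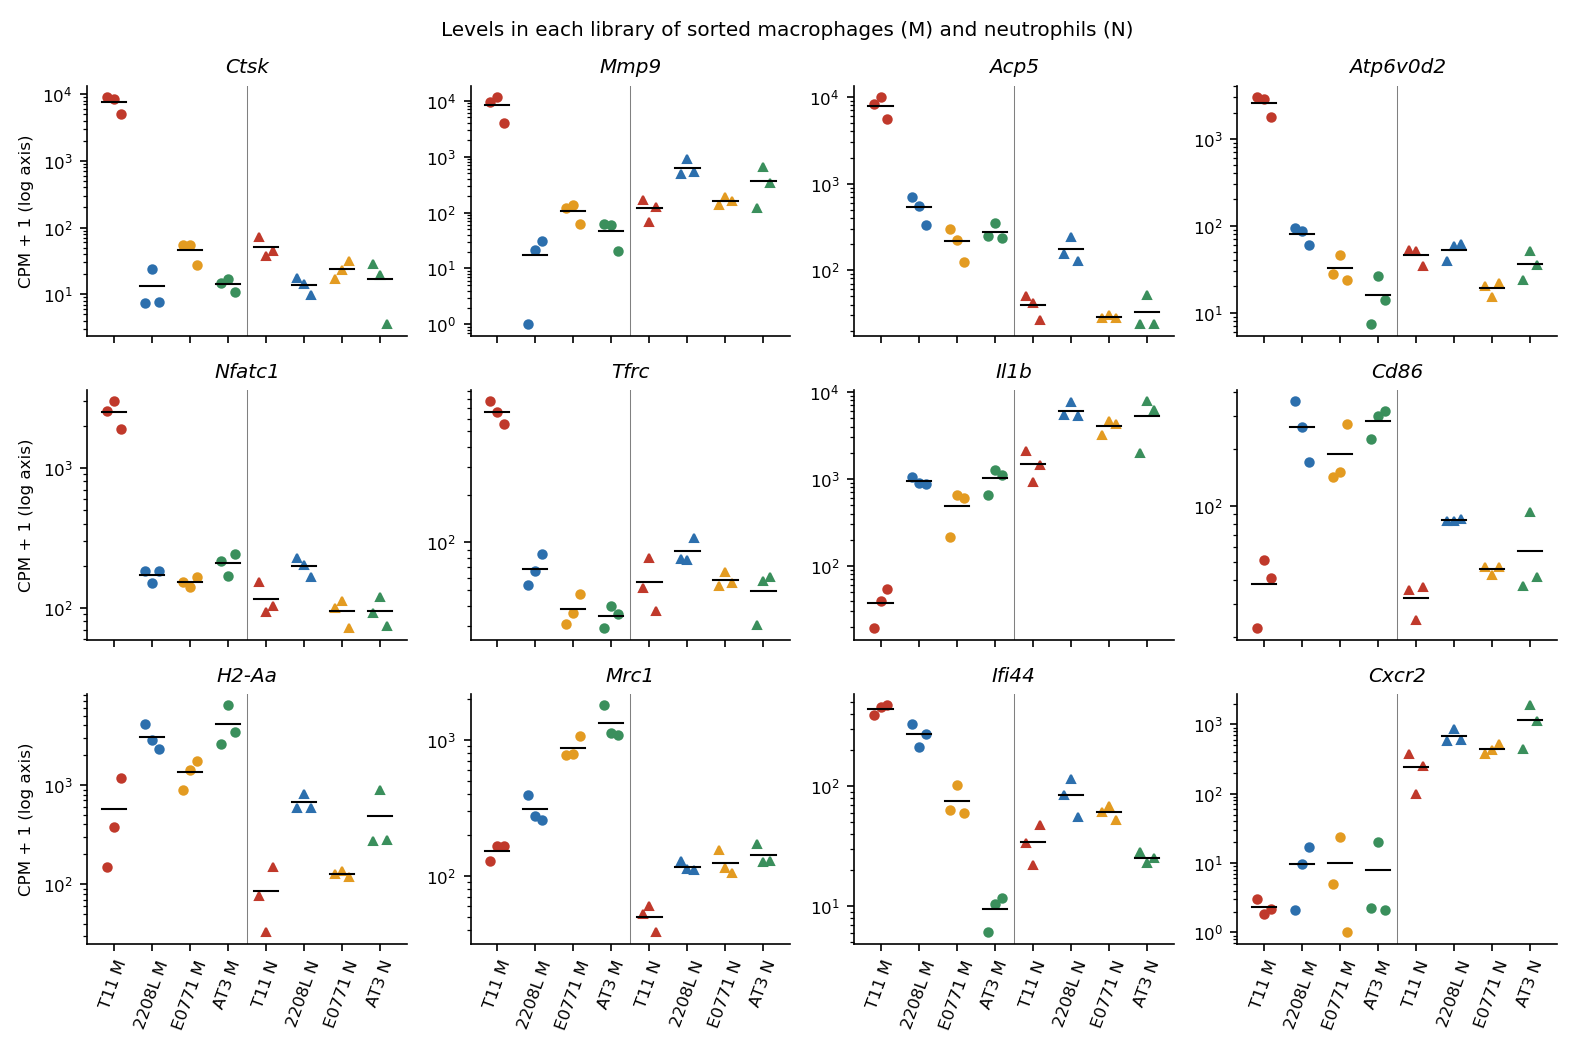
Points are single libraries and bars are group means on a log axis of CPM + 1, for genes named in the text across the 8 sorted groups. For Ctsk, Acp5, Mmp9 and Nfatc1 the 3 T11 macrophage libraries lie above every other library. Il1b is lower in T11 macrophages than in every other group of sorted cells.

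Genes of the proton pump were also higher. The V-ATPase is a complex of a cytosolic V1 part that splits ATP and a membrane V0 part that moves protons. Of 16 subunit genes tested, 13 had a positive interaction (all 13 held, and each against every other tumour singly), 0 a negative one, and 3 were not called. Of all genes, 15.8% had a positive interaction. On the macrophage side 14 were higher (11.9% of all genes), 1 lower and 1 not called, and on the neutrophil side 11 were lower (5 held, against 11.8% and 4.26% of all genes) and 0 higher. Atp6v0d2, Atp6v1c1 and Tcirg1 are in the osteoclast-like list too, so the lists are not separate observations. Of the 13 other subunits tested, 10 had a positive interaction (median 2.96), 11 were higher on the macrophage side and 10 lower on the neutrophil side. The 13 positive interactions stayed 13 with any 1 library left out, and the 11 lower calls on the neutrophil side became 7 without T11 neutrophil library 3 and 7 with 2208L left out. V0 subunits were led by Atp6v0d2 at 2986, 2870.2 and 1788 CPM in T11 macrophages and 52.0, 50.5 and 33.4 CPM in T11 neutrophils, beside other macrophage means of 14.8 to 79.1 CPM. Tcirg1, the V0 a3 subunit of osteoclasts, stood at 2515, 2649 and 1758 CPM against 102, 69.2 and 107 CPM. Atp6v0a1, the alternative a1 subunit, went the other way on the macrophage side, at 108, 102 and 103 CPM in T11 macrophages where the other macrophages had means of 242 to 312 CPM (log2 difference -1.40 ± 0.27). Its interaction was not called (-0.23 ± 0.36). In the V1 part, Atp6v1b2 reached 3111, 3215 and 2033 CPM in T11 macrophages, a macrophage-side difference of 2.53 ± 0.24, and Atp6v1g1 one of 2.63 ± 0.25. Of the V-ATPase genes, 7 of 16 were above background in T11 neutrophils.

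Of 22 iron and oxidative defence genes, 16 were above background in a T11 group. Of all 9476 such genes, 2986 had a positive and 140 a negative interaction. In this list 8 had a positive and 4 a negative interaction (15.8% and 6.93% of all genes). Among the positive were Sod1, Sod2, Prdx1, Txnrd1, Gpx1 and Gpx4, enzymes of oxidative defence, and Tfrc, the iron importer, which had the largest interaction of the list. Tfrc, the transferrin receptor (chromosome 16, 32608920 to 32632794), stood at 771.1, 665 and 552 CPM in T11 macrophages and 50.9, 78.6 and 36.0 CPM in T11 neutrophils, and the other macrophages at means of 67.1, 37.0 and 33.7 CPM. Its macrophage-side difference was 3.91 ± 0.21 and its interaction 4.07 ± 0.36, while the neutrophil side was not called (-0.16 ± 0.25). The cultured T11 line held 1212 CPM of Tfrc, and what tumour RNA adds to the sorted libraries was not tested. Slc40a1, the iron exporter ferroportin, was lower on the macrophage side by -2.48 ± 0.39, at 11.1, 5.79 and 3.46 CPM. Hmox1, haem oxygenase, was lower on both sides (-2.38 and -2.22), so its interaction was not called.

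Of 28 interferon response genes, 21 had a positive interaction (15 held, against 15.8% and 5.03% of all genes) and 0 a negative one. On the macrophage side 11 were higher (9 held, against 11.9% and 6.89% of all genes) and 1 lower. Without T11 macrophage library 2 the number higher was 5, and without library 3 it was 7. On the neutrophil side 19 were lower (11 held, against 11.8% and 4.26% of all genes) and 0 higher, and 14 were lower without T11 neutrophil library 2. The 2 sides were not tested against each other. Oasl2, an oligoadenylate synthetase-like protein, stood at 79.1, 37.5 and 69.4 CPM in T11 neutrophils against means of 272, 558 and 550.4 CPM in the other neutrophils, a difference of -2.81 ± 0.35, while T11 macrophages did not pass against the others (0.17 ± 0.29). Ifi44 was an exception, at 387, 455 and 469 CPM in T11 macrophages with other macrophage means of 268, 74.2 and 8.42 CPM, and its neutrophil side was not called (-0.58 ± 0.28). Ifit1 combined both sides (1.13 ± 0.27 and -1.98 ± 0.32). All 28 genes were above background in a T11 group, and 11 in T11 neutrophils.

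Of 27 hypoxia and glycolysis genes, 14 had a positive interaction (8 held, against 15.8% and 5.03% of all genes) and 0 a negative one. On the macrophage side 1 was higher and 6 lower (11.9% and 8.58% of all genes), and 3 were lower without T11 macrophage library 1 or 3. On the neutrophil side 19 were lower (14 held, against 11.8% and 4.26% of all genes). Of the 9476 genes above background in a T11 group, 2173 were lower on the neutrophil side. Lower calls on the neutrophil side were common in other lists too, with 19 of 24 neutrophil receptor and signalling genes, 19 of 23 macrophage identity genes and 17 of 21 lipid-associated macrophage genes. With 2208L left out these numbers were 18, 13 and 10, and without T11 neutrophil library 2 they were 12, 13 and 11. Tpi1, triose phosphate isomerase, stood at 78.0, 21.1 and 54.0 CPM in T11 neutrophils against means of 513, 129 and 276 CPM in the other neutrophils. Its neutrophil-side difference was -2.36 ± 0.36 and its macrophage-side difference 0.32 ± 0.29. Aldoa, Pgk1 and Gapdh, further enzymes of the pathway, fell by 1.99, 1.79 and 2.53 on the neutrophil side and were not called on the macrophage side. The 14 positive interactions became 10 without T11 neutrophil library 2 and 10 with 2208L left out. The summed receptor genes were higher in each T11 neutrophil library (13091 to 19000.5 CPM) than in every other neutrophil library (3879 to 12678 CPM), and what this adds to the lower calls was not tested. Counts outside Rn45s overlapped, at 484820 to 619415 in T11 and 470712 to 1185233 in the other neutrophils.

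**Figure D4:**
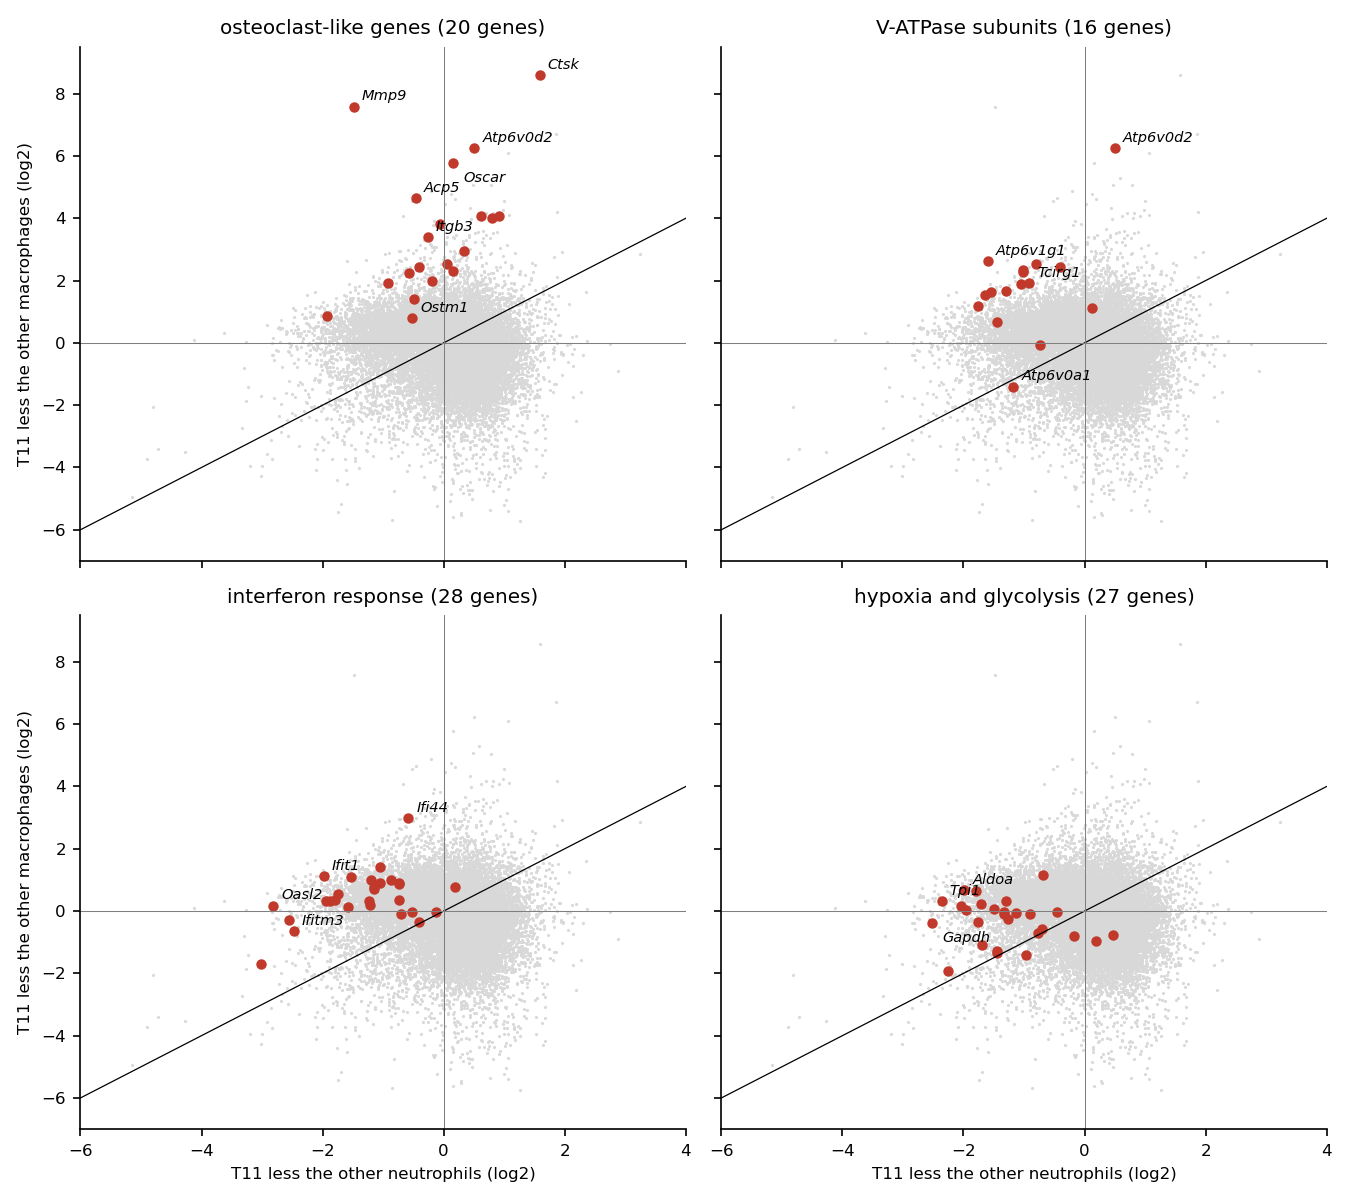
Each panel plots all genes tested in grey and 1 gene list in red, with T11 less the other neutrophils on the x axis and T11 less the other macrophages on the y axis, both in log2. The diagonal marks equal differences, so height above it is the interaction. Osteoclast-like genes sit high with a median neutrophil-side difference of -0.13, V-ATPase subunits lie high and to the left, and the median neutrophil-side differences of interferon and glycolysis genes are -1.17 and -1.33.

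Genes of dividing cells were raised in T11 macrophages. Of 24 proliferation genes, 18 were higher on the macrophage side (15 held, against 11.9% and 6.89% of all genes) and 0 lower. A positive interaction was called in 16 (4 held, against 15.8% and 5.03%), and 2 were lower on the neutrophil side (11.8% of all genes). Mki67, a nuclear protein of cycling cells, stood at 1844, 1661 and 1881 CPM in T11 macrophages and 118, 84.5 and 148 CPM in T11 neutrophils, with other macrophage means of 1173, 301 and 804 CPM. Top2a, a topoisomerase of dividing cells, rose by 1.49 ± 0.21 on the macrophage side. None of the 24 genes was above background in T11 neutrophils. The cultured T11 line held 514 CPM of Mki67 and 873 CPM of Top2a. Summed over 20 tumour cell and fibroblast markers, T11 macrophages held 186 to 260.4 CPM, less than the 668 to 976 CPM of the other macrophages, and T11 neutrophils 634 to 741 CPM.

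Genes of MHC class II presentation were lower in T11 macrophages. Of 13 such genes, 12 were lower than in the other macrophages (8.58% of all genes) and 0 higher, with a median of -1.96, and 9 to 12 were lower with 1 library left out (9 without T11 macrophage library 1). On the neutrophil side 10 were lower (11.8% of all genes), and 4 without T11 neutrophil library 2. The interaction was higher in 1 gene and lower in 3 (15.8% and 6.93% of all genes), and lower in 6 without T11 macrophage library 3. The 3 lower ones in the main fit were Cd40, Cd86 and Ciita, so no class II chain was among them. H2-Aa, a class II alpha chain, stood at 147, 377 and 1174 CPM in T11 macrophages, a wide spread, against means of 3081, 1347 and 4109 CPM in the other macrophages. Ciita, the class II transactivator, stood at 28.3, 54.6 and 92.3 CPM against means of 230.1, 134 and 373 CPM, and had an interaction of -1.66 ± 0.39. Macrophage library 3 was the highest of the 3 in both genes. The costimulatory ligand Cd86 stood at 21.2, 50.5 and 40.4 CPM in T11 macrophages and 34.7, 23.5 and 36.0 CPM in T11 neutrophils. The other tumours' macrophages had Cd86 means of 262, 187 and 281 CPM, and the interaction was -1.76 ± 0.41. Cd40, a costimulatory receptor, had one of -2.22 ± 0.52, and both genes were called against each other tumour singly. Of 20 checkpoint and costimulatory ligands, 12 were lower and 0 higher on the macrophage side. Cd40 and Cd86 are in this list too, so it and the class II list are not separate observations.

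Many identity, scavenger and matrix genes were lower in T11 macrophages than in the other macrophages. Of 23 macrophage identity genes, 14 were lower and 2 higher on the macrophage side (8.58% and 11.9% of all genes), and 8 were lower without T11 macrophage library 2. On the neutrophil side 19 were lower (11.8% of all genes), and 13 with 2208L left out. Of the 23 genes, 21 were above background in a T11 group, and all 9476 such genes had a median interaction of 0.71. The interaction of this list was higher in 6 and lower in 3 (15.8% and 6.93% of all genes), with a median of 0.42. Only 1 was lower without T11 macrophage library 2 or T11 neutrophil library 3. Csf1r, the receptor for colony-stimulating factor 1, was one of the higher ones, at 4034, 5454 and 4304 CPM with other macrophage means of 2862, 1139 and 4391 CPM (log2 difference 0.92 ± 0.28, adjusted p = 0.0141). Mrc1, the mannose receptor, stood at 127, 164 and 164 CPM against means of 307, 881 and 1339.6 CPM, lower by -2.23 ± 0.27. Itgax (CD11c) was lower by -2.99 ± 0.33. Of 20 alternative activation and scavenger genes, 11 were lower and 0 higher, and 9 of the 20 were above background in a T11 group. Of 24 matrix and remodelling genes, 16 were lower and 3 higher, the higher ones being Mmp9, Mmp14 and Timp2. Of these 24, 12 were above background in a T11 group. Col1a1, Col3a1 and Col5a1 are in the tumour cell and fibroblast list too, and what RNA of other cells adds was not tested. Mmp12, the macrophage elastase, stood at 89.8, 132 and 87.7 CPM where the other macrophages had means of 675 to 1174 CPM. Fn1, fibronectin, was lower by -2.91 ± 0.55, at 1769, 1462 and 824 CPM. Mmp13, a collagenase, was lower still, at 4.04, 5.79 and 5.77 CPM against means of 68.2, 335 and 129 CPM, and its T11 neutrophil level was below background.

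Secreted signals split. Il1b, interleukin-1 beta, stood at 18.2, 38.9 and 53.1 CPM in T11 macrophages and 2114, 915 and 1434 CPM in T11 neutrophils, with other macrophage means of 945, 487 and 1019 CPM and other neutrophil means of 6090.2, 4045 and 5309 CPM. It was lower on both sides, by -4.41 ± 0.49 and -1.77 ± 0.39, and its interaction was -2.63 ± 0.54 (adjusted p = 0.000249). Tnf was lower on both sides too (-1.86 and -1.56), and its within-T11 difference was 0.03 ± 0.43. Among 23 chemokine ligands, 12 were lower and 1 higher on the macrophage side (8.58% and 11.9% of all genes). The higher one, Ccl9, a ligand of Ccr1, stood at 1723, 1452 and 1281 CPM in T11 macrophages and 43.3, 42.2 and 66.8 CPM in T11 neutrophils, an interaction of 2.87 ± 0.44. Ccl6, its neighbour in the genome, was lower on the macrophage side by -4.10 ± 0.41, at 54.5, 53.0 and 58.9 CPM against means of 410.3, 863 and 2407 CPM. Nfkbia, the inhibitor of nuclear factor kappa B, had an interaction of 2.91 ± 0.43, from 1.37 ± 0.28 on the macrophage side and -1.54 ± 0.33 on the neutrophil side.

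**Figure D5:**
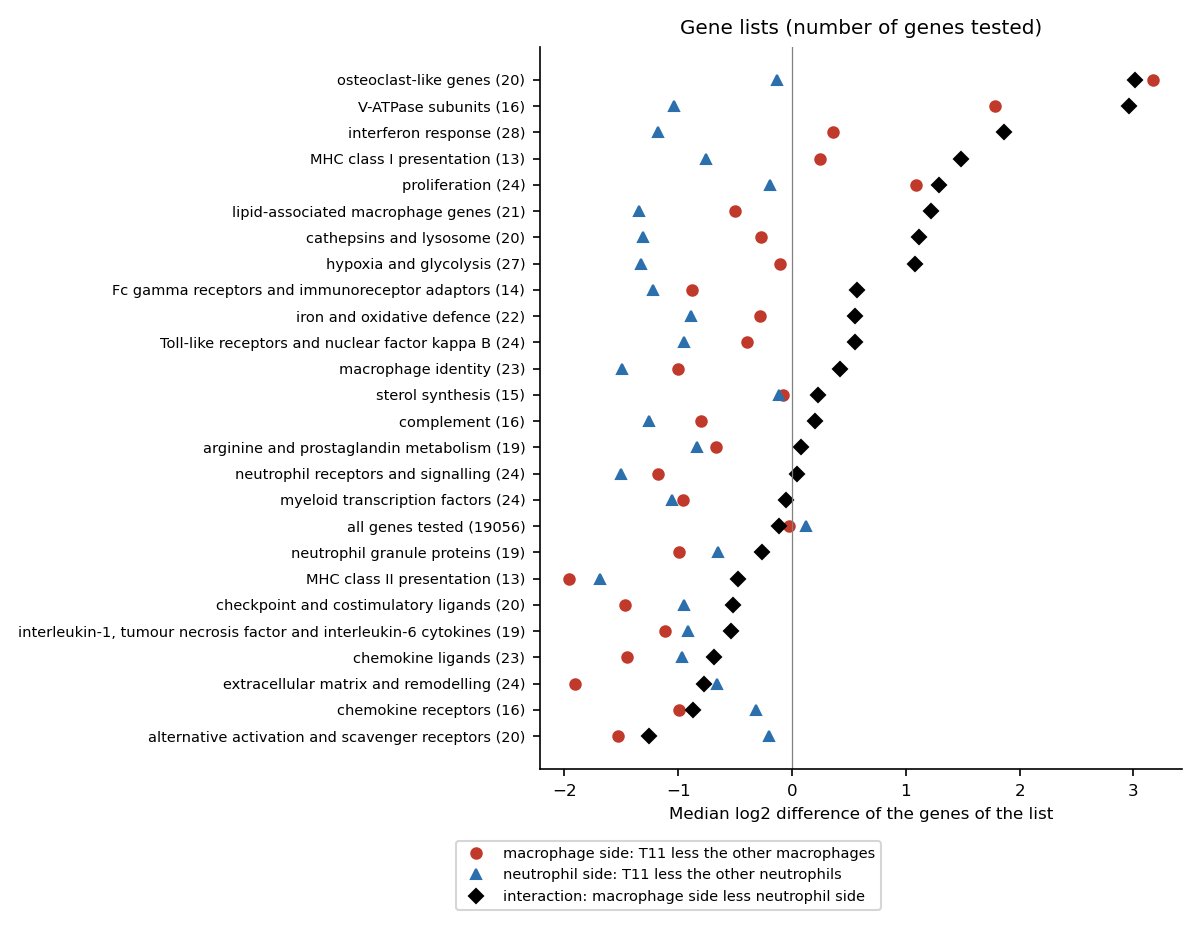
Each row is 1 of the 25 pathway lists or all genes tested, ordered by the median interaction. Markers give the median log2 difference of the macrophage side, the neutrophil side and the interaction. Osteoclast-like genes and V-ATPase subunits have the highest median interactions (3.01 and 2.96) and share 3 genes, and MHC class II presentation has the lowest macrophage side (-1.96).

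The genes with the largest negative interaction, named by the rule used for the positive ones, were scarce in T11. They were Retnla, Cbfa2t3, Mmp13, Fpr1, Nxpe5, Muc1, Wnt2, Adam11, Stat4, Cyp4f18, Mlxipl and Cd300e, and only Cyp4f18, a cytochrome P450 that inactivates leukotriene B4, was above background in a T11 group. Cyp4f18 stood at 15.1, 4.97 and 2.31 CPM in T11 macrophages and 239, 69.2 and 126 CPM in T11 neutrophils, with other macrophage means of 71.4, 78.8 and 269 CPM. Retnla, a product of alternatively activated macrophages, had no count in T11 macrophages and 21 in T11 neutrophils, so it was at least 8.41-fold lower, taking 3 counts over the group as the floor. Cbfa2t3, a transcriptional corepressor, stood at 2.02, 6.62 and 4.62 CPM in T11 macrophages against means of 33.9, 81.9 and 58.3 CPM in the other macrophages. Fpr1, a formyl peptide receptor, lost its call without T11 macrophage library 2 (-3.12, adjusted p = 0.078), and Muc1, a mucin, without T11 macrophage library 1 or 2 or T11 neutrophil library 3 (-3.03, -2.91 and -3.15).

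The comparison with 2208L keeps the labelled strain constant. The T11 difference exceeded the 2208L difference in 3166 genes (16.6%) and fell below it in 2048 (10.7%). Of the osteoclast-like genes 19 of 20 were called higher and 0 lower, of the V-ATPase subunits 13 of 16, and of the interferon genes 21 of 28. Of the proliferation genes 9 of 24 were called higher, and 5 without T11 macrophage library 3. Mmp9 differed by 11.38 ± 0.85, Ctsk by 7.25 ± 0.72, Acp5 by 6.06 ± 0.57 and Tfrc by 3.95 ± 0.42. Il1b differed by -2.65 ± 0.64. H2-Aa did not pass (0.53 ± 0.69, adjusted p = 0.57). The sorted neutrophils of 2208L carried macrophage transcripts, with Apoe at a mean of 2669.9 and C1qa at 847 CPM where T11 neutrophils had 126 and 96.9 CPM. With 2208L left out of the mean of the other tumours, 19 osteoclast-like genes kept a positive interaction.

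Sums of T and NK cell, B cell, dendritic cell and endothelial markers were higher in T11 neutrophils, where none of these genes was above background. Summed over 15 T and NK cell genes, T11 macrophages held 58.5 to 83.6 CPM and T11 neutrophils 169.7 to 187 CPM. B and plasma cell genes gave 36.9 to 57.1 and 182 to 224 CPM, dendritic cell genes 78.5 to 103 and 285 to 326 CPM, and endothelial genes 135 to 173 and 359.7 to 461 CPM. Monocyte genes went the other way in the median of their sums, at 1578 to 2203 and 649 to 1591 CPM. By member they did not. Of the 12 genes, 3 were called higher and 7 lower in T11 macrophages (29.2% and 39.6% of all genes), with a median log2 difference of -1.11. In T11 neutrophils 3 of the 12 were above background.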

How the data were processed

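The authors deposited raw counts per gene symbol, 24054 symbols in 48 libraries, made from total RNA. Reads were converted with bcl2fastq 2.17 and aligned with STAR 2.4.2a to mm10, per the submitters' processing notes. The counting program, its annotation and its use of strand are not given in the sources used here, and overlapping genes or paralogs can share reads. Positions and exon lengths are those of GENCODE M21 (22750 symbols matched directly, 930 through a synonym, 374 not). The 3 columns whose names match no sample title were not used.

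Rn45s, which took 66.2% to 71.4% of the counts in T11 macrophages and 26.8% to 42.9% in T11 neutrophils, was left out before library sizes. The 24 sorted libraries, grouped by their titles, were fitted together in 8 groups in R 4.3.3 by the quasi-likelihood test of edgeR 4.0.16. Genes were filtered with filterByExpr at a minimum count of 10 and a minimum total of 15, scaled by TMM and adjusted after Benjamini-Hochberg for 19056 tests, with a call at an adjusted p below 0.05. Log2 differences carry the SE, levels the SD. The scalings compared were TMM, RLE factors, DESeq2 1.42.0, TMM with Rn45s kept, and TMM from genes with a mean of at least 50 CPM. Background is the CPM per kilobase of 1448 receptor genes with an exon length. Receptor sums and the cultured line are CPM outside Rn45s without TMM factors. Other alternatives left out a library or a tumour, or changed the filter.

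The members and gene lists were chosen with earlier results of these data known. Named genes are the 10 in each direction within T11 with the largest difference. They had a mean of at least 50 CPM in the higher group and no overlap between groups. To these come the 12 in each direction with the largest called interaction, beside list members. The 12 had a mean of at least 50 CPM in a sorted group and a T11 difference outside the range of the other 3 tumours. Predicted and clone-named genes, receptor genes and ribosomal RNA were left out. Replicate pairs differed by 1.55 to 10.75 in chi-square per degree of freedom, so no library was a copy. The interaction test was also run on data simulated from these counts over 18383 genes. It recovered 12% of genes changed 2-fold, 66% at 4-fold, 98% at 8-fold and 96% at 16-fold, and called 0.08% of unchanged genes. Changed genes had a mean of at least 20 CPM, and all other genes were set to the mean ratio of the other 3 tumours. The simulation was thus given no general shift of T11, so its share of false calls does not carry over to the real data.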

Additional observations from a re-analysis of the deposited data

Results flagged for a closer look

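The genes below were singled out because the difference between macrophages and neutrophils in T11 departed from the mean difference in the other 3 tumours by a test of that difference itself. They are the 12 with the largest departure in each direction among the genes that met a naming rule. It asked for a mean of at least 50 CPM in a sorted group and a T11 difference outside the range of the other 3 tumours. Predicted, clone-named and receptor genes were left out. The values are log2 interactions. Higher in T11 were Mmp9 (9.07), Ctsk (7.00), Atp6v0d2 (5.74), Oscar (5.62), Acp5 (5.11), Myo1d (5.09), Steap4 (5.07), Cyp2s1 (5.04), Slc9b2 (4.86), Rufy4 (4.74), Akap6 (4.72) and Cd109 (4.65). Steap4, a metalloreductase, was the one among them not called within T11, at 139, 115 and 68.1 CPM in macrophages and 125, 62.2 and 78.4 CPM in neutrophils. Its macrophages in the other tumours had means of 9.35, 5.27 and 1.90 CPM.

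Lower in T11 were Retnla (-5.73), Cbfa2t3 (-4.10), Mmp13 (-3.93), Fpr1 (-3.67), Nxpe5 (-3.59), Muc1 (-3.46), Wnt2 (-3.44), Adam11 (-3.39), Stat4 (-3.34), Cyp4f18 (-3.34), Mlxipl (-3.23) and Cd300e (-3.23). All but Cyp4f18 were below 10 times the receptor background in both T11 groups. Retnla, Fpr1, Muc1 and Wnt2 had 0, 1, 1 and 3 counts over the T11 macrophage libraries, so their fitted values depend on the prior count.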

How the results depend on the processing

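Of the counts of calls, those with Rn45s kept, without the 2 BALB/C-labelled E0771 libraries, or with each comparison's own libraries fitted alone stayed within 1.5 times the main count, except that the 12 neutrophil libraries alone gave 1271 genes higher on the neutrophil side where the joint fit gave 154. The cause was not tested. The scaling mattered most. With TMM factors from genes of at least 50 CPM, the counts higher and lower were 1680 and 12574 within T11, 959 and 4604 for the interaction, 950 and 6744 beyond 2208L, 1327 higher on the macrophage side, and 4259 and 813 on the neutrophil side. RLE size factors gave 2202 lower interactions, 3183 lower beyond 2208L and 384 higher on the neutrophil side, and DESeq2 gave 2401, 3521 and 429. Centred on genes above background, the interaction counts were 1124 and 3916, and 2469 genes were higher within T11. Genes above background alone, which are fewer, gave 398 lower within T11, 140 for the interaction, 116 beyond 2208L, 599 on the macrophage side, and 37 higher on the neutrophil side. Genes of at least 20 CPM gave 3823 lower within T11, no filter gave 96 higher on the neutrophil side, and a log2 difference of at least 1 left 1272 higher on the macrophage side. Against AT3 only, the interaction counts were 1378 and 370. With 2208L left out of the mean they were 775 lower, and on the neutrophil side 43 higher and 1397 lower.

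With 1 library left out in turn, counts higher and lower ran from 5100.0 to 5955 and 6100.0 to 8113 within T11, 2306 to 3584 and 7.7e+02 (rounded) to 1689 for the interaction, 2603 to 3710.0 and 1311 to 2844 beyond 2208L, 1423 to 2560.0 and 982 to 1829 on the macrophage side, and 21 to 215 and 1196 to 2933 on the neutrophil side. Without T11 macrophage library 2 the lowest count of lower interactions was reached, and 1423 and 982 genes passed on the macrophage side. Without T11 neutrophil library 2 the numbers were 876 for the lower interaction, and 21 and 1196 on the neutrophil side, and without T11 neutrophil library 3, 850 and 28. The count higher on the neutrophil side, 154, was 47 without T11 neutrophil library 1, 61 to 81 without any 1 E0771 neutrophil library, and 92 to 98 without neutrophil library 2 or 3 of 2208L or AT3. Lower beyond 2208L were 1311 and 1320.0 genes without macrophage library 2 of T11 or 2208L, and 1341 and 1333 without neutrophil library 2 of either.

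The submitters' column names carry matching numbers for the macrophages and neutrophils of a tumour, but no label says that a number marks a shared animal. Same-numbered T11 macrophages and neutrophils correlated at -0.057, -0.113 and 0.080 in their deviations. In AT3 each library correlated best with its own number (0.182, 0.275 and 0.069), a hint from the data and not from the design, and in 2208L and E0771 not every library did. The libraries were therefore not treated as pairs. As an alternative, same-numbered macrophages and neutrophils of a tumour were blocked as pairs. The counts were then 5408 and 6936 within T11, 2902 and 1071 for the interaction, and 3065 and 1455 beyond 2208L. With the replicate number alone as a block they were 2183 and 1538 on the macrophage side, and 135 and 2151 on the neutrophil side.

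Interactions that were not called in the main fit changed sign for some genes. RLE factors and DESeq2 gave Emr1 -0.12 each, C1qa -0.27 each, and Arg1 -0.17 and -0.15. Factors from genes of at least 50 CPM gave Itgam -0.55, Emr1 -0.71, C1qa -0.82, Apoe -0.038, Arg1 -0.75, Cd274 -0.59, Ccr2 -0.27 and Cx3cr1 -0.23, and within T11 gave Cxcr4 -0.87 and Vegfa -0.017. Centring gave Itgam -0.35, Emr1 -0.52, C1qa -0.69, Arg1 -0.56, Cd274 -0.37, Ccr2 -0.090 and Cx3cr1 -0.057, and within T11 Cxcr4 -0.50. Without 2208L, Itgam was -0.35, C1qa -0.54, Arg1 -0.27 and Cd274 -0.00402. Against E0771 only, Itgam was -0.22, C1qa -0.62, Arg1 -0.15, Cd274 -0.93 and Ly6c2 -0.63. Against AT3 only, Csf3r was 0.11, Itgam -0.48, C1qa -0.46, Arg1 -0.40 and Ptgs2 0.29. With 1 library left out, C1qa ran from -0.38 to 0.47, H2-Aa from -1.26 to 0.51, Arg1 from -0.43 to 0.69 and Emr1 from -0.24 to 0.39. The number of genes above background was lowest in T11 neutrophils (661), at 484820 to 619415 counts outside Rn45s. E0771 neutrophils, at 470712 to 669300 counts, had 2915. The alternatives on each other tumour singly, above background, centring, and lists with libraries left out were added after the data were seen.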

Other observations

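Genes of MHC class I presentation were higher in T11 macrophages than in T11 neutrophils in 13 of 13 tested, and 7 had a positive interaction (3 held). Over all genes, 29.2% were higher within T11, and 15.8% and 5.03% had a positive interaction that was called and held. H2-D1, a class I heavy chain, stood at 287, 467 and 383 CPM in T11 macrophages and at 67.2, 32.9 and 61.7 CPM in T11 neutrophils, where the other neutrophils had means of 129, 152 and 198 CPM. All 20 cathepsin and lysosome genes were higher within T11, and 9 had a positive interaction (5 held) and 1 a negative one, which was lost without T11 macrophage library 1 or T11 neutrophil library 1. The 9 became 6 without T11 macrophage library 2 or with 2208L left out, and 14 without AT3 neutrophil library 1. The negative one was Ctsh, cathepsin H, at 49.5, 62.9 and 83.1 CPM in T11 macrophages against means of 792, 318 and 587 CPM in the other macrophages.

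Ptgs2, the inducible prostaglandin synthase, stood at 25.2, 28.1 and 26.5 CPM in T11 macrophages and at 659, 434 and 666 CPM in T11 neutrophils (log2 difference -4.45 ± 0.46). Lpl, lipoprotein lipase, stood at 366, 340.2 and 315 CPM in T11 macrophages and at most 43.4 CPM in T11 neutrophils, and was higher on the macrophage side by 1.40 ± 0.22. Fabp5, a fatty acid-binding protein, was lower there by -2.11 ± 0.30, at 24.2, 31.4 and 26.5 CPM.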
